A study of Mus musculus with 6 samples.

Results

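The regions described here lay closest to an olfactory receptor gene. They were picked from the list of regions that the authors deposited for a chromatin immunoprecipitation and sequencing (ChIP-seq) series on mouse testis, by 1 rule: the nearest gene named in that list has a symbol that starts with Olfr. The rule found 439 of 39096 regions, which was 1.12% of the list and 1.91% of its 23030 regions on the autosomes and X. They were nearest to 267 different Olfr genes on 16 chromosomes and covered 544 kb in build mm10. The rule used the nearest gene and nothing of the signal, so position relative to a receptor gene is given by the choice, while repeat content, length and score are not.

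The antibody was directed against PHF13, also called SPOC1, which reads methylation of histone H3 through its PHD finger. All 6 libraries came from testis of C57Bl/6 mice at 5 weeks of age: 3 SPOC1 ChIP and 3 input libraries, with replicate numbers 1 to 3. By genotype label, wild type was given to 1 ChIP and 2 input libraries and Phf13-/- to 2 ChIP libraries and 1 input. The ChIP and input whose titles begin with D821 carry different genotypes, and the labels do not say what that code stands for. The sources used here do not give the libraries behind the list, and no value in it belongs to a single library. No replicate error, no depth and no comparison of genotypes could therefore be had, the regions are not taken as sites of PHF13 binding, and the identity of the tissue could not be checked with marker genes.

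Olfactory receptors are G protein-coupled receptors that detect odorants in the nose, and in mice they form the largest gene family. The genes are short, most have their coding sequence in 1 exon, and they stand in tandem clusters scattered over many chromosomes, often in AT-rich sequence with many L1 elements. Each olfactory sensory neuron expresses essentially 1 of them, while the others stay in heterochromatin. L1 elements are retrotransposons that copy themselves through RNA. L1Md_T and L1Md_A are young families of them in mice.

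Few regions met the short receptor gene models or the sequence next to their annotated starts. The same was true of short gene models and gene starts in general. The RefSeq reference (GRCm38.p6, the assembly that mm10 names) had 1109 protein-coding Olfr genes, of which 939 have a model under 1.2 kb, and 0 of these 939 bodies was overlapped by a region, beside 0.229% of all protein-coding bodies under 1.2 kb. That background includes the Olfr bodies. Without them it was 4 of 808 (0.495%, exact binomial 95% interval 0.135 to 1.26%). The same kind of interval for 0 of 939 reached up to 0.392%, so the ranges overlap. Of the windows from 250 bases before to 50 bases after the start that RefSeq gives for Olfr genes, 1 of 948 was overlapped, which is 0.105%, beside 0.107% of all 32619 such windows. Most Olfr models begin at the start codon, so these windows are the sequence around the annotated start and often not the promoter. That window belongs to Olfr119, a receptor gene in the cluster on chromosome 17 that adjoins the major histocompatibility complex. The region (chr17:37696110-37696610, 500 bp, score 6.37) reached 176 bases into it. The window is shown because it is the Olfr window that a region reached into, and 2 windows with a similar motif and no region are shown for comparison. In the first, capitals mark the bases inside the region. In the other 2, capitals mark 2 or more TCTA or TAGA units in direct succession.
Olfr119: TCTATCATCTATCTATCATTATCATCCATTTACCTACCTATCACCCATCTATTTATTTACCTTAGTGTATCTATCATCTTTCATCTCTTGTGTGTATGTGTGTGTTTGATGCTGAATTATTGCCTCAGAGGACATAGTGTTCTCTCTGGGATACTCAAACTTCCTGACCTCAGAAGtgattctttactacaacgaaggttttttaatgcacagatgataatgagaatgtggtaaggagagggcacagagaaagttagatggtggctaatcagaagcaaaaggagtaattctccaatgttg
Olfr1100: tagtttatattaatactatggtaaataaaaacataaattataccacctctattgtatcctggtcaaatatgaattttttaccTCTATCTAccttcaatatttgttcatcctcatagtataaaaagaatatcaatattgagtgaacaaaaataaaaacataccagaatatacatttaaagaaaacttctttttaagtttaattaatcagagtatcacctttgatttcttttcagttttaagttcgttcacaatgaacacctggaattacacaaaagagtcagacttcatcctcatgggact
Olfr1135: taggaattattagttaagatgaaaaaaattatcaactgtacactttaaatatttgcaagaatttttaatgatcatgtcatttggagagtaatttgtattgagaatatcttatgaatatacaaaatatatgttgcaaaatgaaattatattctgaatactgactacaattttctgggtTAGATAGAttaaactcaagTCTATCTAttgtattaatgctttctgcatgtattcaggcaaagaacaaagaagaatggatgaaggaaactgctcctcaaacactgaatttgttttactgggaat
The sequences are RefSeq's, 5′ to 3′ on the strand of each gene, in build GRCm38.p6: chr17:37696435-37696734 (plus strand) for Olfr119, chr2:86978745-86979044 (minus strand) for Olfr1100 and chr2:87672316-87672615 (minus strand) for Olfr1135. All 5 copies of TCTA in the Olfr119 window lay in its covered part. The pair TCTATCTA, or TAGATAGA on the other strand, was found in 19 of 948 Olfr windows (2%) and in 169 of all 32619 (0.518%). Of those 19, the Olfr119 window alone met a region, beside 3 of the 169 and 35 of all 32619 windows. The closest regions to the windows of Olfr1100 and Olfr1135 were both at L1Md_A elements, 4.34 kb and 3.31 kb away. A match of these letters is a description of the sequence and of nothing more, and the Olfr windows were rich in A and T, with a median of 65% beside 47% over all windows.

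Most regions, 350 of 439, were centred on LINE elements, and 312 of the 350 were at young L1. L1Md_T lay at the centre of 191 regions (43.5%, exact binomial 95% interval 38.8 to 48.3%) and L1Md_A at 121 (27.6%, 23.4 to 32%). Together these families made up 312 regions, or 71.1% (66.6 to 75.3%), and all LINE elements 350, or 79.7% (75.7 to 83.4%). Among the 22591 other regions on the autosomes and X, the shares were 63% (62.3 to 63.6%) for both young families and 72.5% for LINE. The excess was not the same on each chromosome. Of the 13 chromosomes with at least 10 of the regions, 8 had a higher young L1 share near receptors than in the rest of that chromosome, among them X (88.9% against 53%) and chromosome 7 (87.3% against 54.8%). It was lower on chromosomes 10 (50% against 67.6%), 14 (55.2% against 60.8%), 16 (60.7% against 67.2%), 17 (58.8% against 61.1%) and 19 (45.5% against 61%). The intervals cover counting error only. No test was run, because regions are not replicates and neighbours in a cluster can share an element.

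Older or smaller L1 families and retroviral elements held most of the rest. The L1Md_F group, an L1 family older than L1Md_T and L1Md_A, had 27 regions, of which 21 were at L1Md_F2. LTR elements, which derive from retroviruses, had 61 (13.9%, beside 17.3% elsewhere). Of these, 29 were at IAPEz-int, the internal part of an intracisternal A particle that is still mobile in mice, 6 at MMERVK10C-int and 5 each at MERVL-int and ETnERV3-int. Simple repeats had 15 regions, among them 5 at (TAGA)n, and 13 regions had no repeat named. Of those 13, the 4 classed as promoter and the 1 classed as a transcription end have that class in place of a repeat name.

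**Figure D1:**
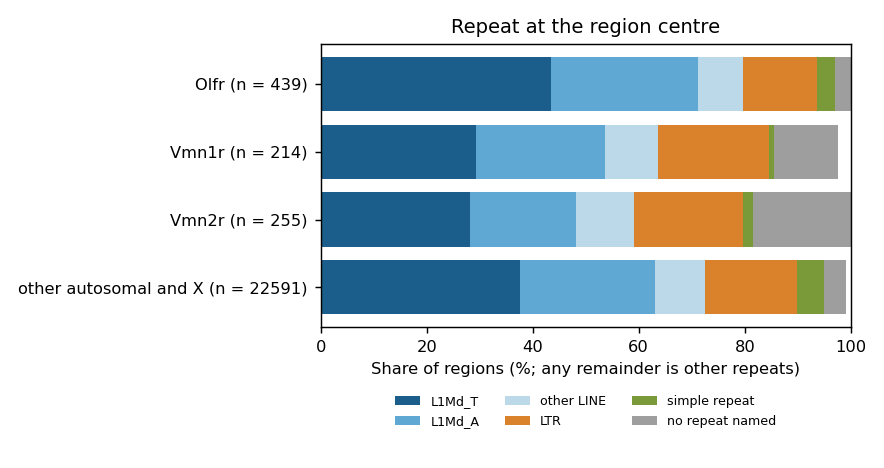
Share of regions (%, x axis) by the repeat at the region's centre, for regions nearest to Olfr, Vmn1r and Vmn2r genes and for all other autosomal and X regions (y axis, with the number of regions). L1Md_T and L1Md_A together reach 71.1% in the Olfr bar, 53.7% and 48.2% in the Vmn1r and Vmn2r bars and 63% in the last.

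The vomeronasal receptors, pheromone receptors of the vomeronasal organ, are the most similar clustered families. Their neighbourhoods held 214 regions (Vmn1r) and 255 (Vmn2r), and young L1 made up 53.7% (46.8 to 60.6%) and 48.2% (42 to 54.6%) of them. Regions with no repeat named made up 12.1% and 18.4% there, against 2.96% (1.59 to 5.01%) at olfactory receptors. Among the other autosomal and X regions they made up 3.98%, so in this the olfactory receptor regions were like regions elsewhere. Beside these families, then, the olfactory receptor regions held more young L1 and fewer centres without a repeat, by amounts larger than the counting intervals; the difference was not tested. The authors' class was intergenic for 95.9% of the olfactory receptor regions, 96.7% at Vmn1r, 80.4% at Vmn2r and 78.2% elsewhere, and intronic for 13, 3, 50 and 4821 regions in the same order.

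Regions at the receptors were short, and their score per kb was close to that of regions elsewhere. The score is the authors' own value per region, has no stated unit and grows with length, so it was divided by length. Lengths ran from 500 to 6467 bp with a median of 713 bp (95% interval 655 to 766; 672 bp elsewhere), and 156 regions (35.5%) were exactly 500 bp long. The median score per kb was 28.3 (27.6 to 29.3), beside 28 (28 to 28.2) for the other autosomal and X regions. The intervals overlap, so a difference in score per kb was not detectable in this list. It was 30 at L1Md_T (29.3 at L1Md_T elsewhere), 29.2 at L1Md_A (28.8), 33.6 at IAPEz-int (32.2) and 23.3 at L1Md_F2 (23.4). LTR elements as a class had 27.2 (26.2 to 31.8), beside 30.2 (29.9 to 30.6) elsewhere. Simple repeats had 12.2 (12.7 elsewhere) and regions with no repeat named 13.5 (12.3). Within the neighbourhoods, therefore, young L1 and IAP regions stood at more than 2 times the score per kb of simple repeats. Of the classes, LTR elements differed most from their level elsewhere, with overlapping intervals.

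Long regions were a young L1 feature. Of the 439 regions, 17 (3.87%, 2.27 to 6.13%) were 5 kb or longer, against 1.9% elsewhere; 12 of them were at L1Md_T, 4 at L1Md_A and 1 at L1Md_Gf. At L1Md_T the share of 5 kb or more was 6.28% near olfactory receptors and 3.8% elsewhere, and at L1Md_A 3.31% and 1.56%. A full-length L1 is several kb long, and a shorter region need not mark a shorter element. In 92 of the 121 pairs of neighbouring regions at most 7 kb apart, both had the same repeat name. Counted once each, such runs left 347 regions, with a young L1 share of 66.9% (61.6 to 71.8%). Counted in the same way, the other autosomal and X regions had a share of 57.6% (56.8 to 58.3%). These intervals cover counting error only, and the difference was not tested.

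**Figure D2:**
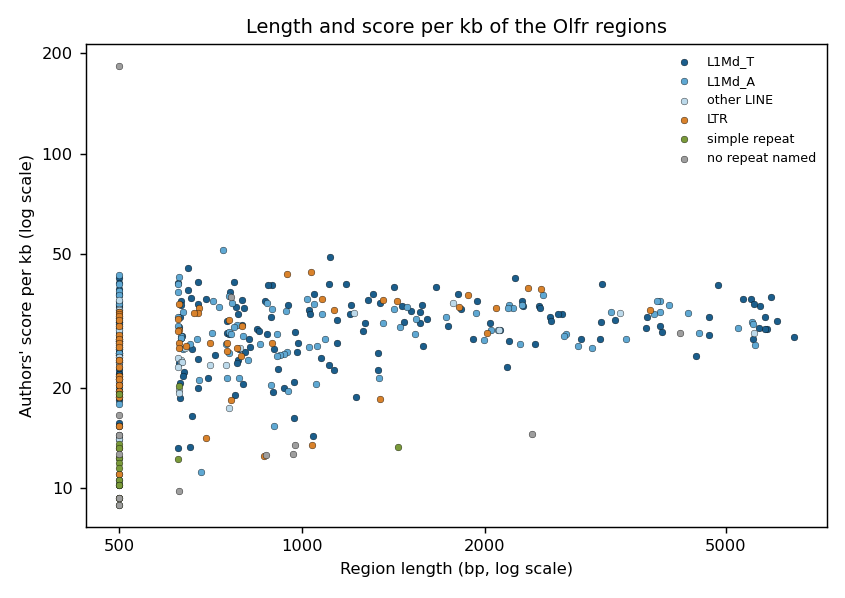
Length (bp, log scale, x axis) and score per kb (log scale, y axis) of the 439 regions, 1 point each, coloured by the repeat at the centre. Lengths start at 500 bp, simple repeats sit near 12.2 and L1Md_T near 30, and 1 region with no repeat named stands alone at 183.

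The 10 regions with the highest score were all at L1Md_T. The first lay 6.01 kb upstream of the start of Olfr1154 (chr2:87906715-87912652, 5937 bp, score 221.5, 37.3 per kb). Next were a region 28.4 kb downstream of Olfr1269 (chr2:90088456-90093959, score 202.6) and one 18 kb downstream of Olfr796 (chr10:129587638-129593325, score 199). These 3 were intergenic and over 5 kb long. Olfr161 and Olfr142 followed with 197.1 each, then Olfr1323 on X with 196, Olfr196 with 192.4, Olfr1350 with 188.6, Olfr923 with 183.1 and Olfr1323 again with 175.2. The 10 lengths lay between 4848 and 6467 bp and the scores per kb between 28.3 and 40.4. All 10 were at or above the median of 28.3 per kb, and 6 were above the upper quartile of 33.6. Because score per kb is the same score divided by length, the choice by score itself favours high values.

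Most regions lay within 20 kb of the start of their nearest receptor gene. The median distance was 12.1 kb (quartiles 7.41 and 21.9 kb), against 111 kb for the other autosomal and X regions; the starts of neighbouring protein-coding Olfr genes were a median of 20.8 kb apart. By distance, 4 regions lay within 1 kb, 49 between 1 and 5 kb, 124 between 5 and 10 kb, 139 between 10 and 20 kb and 82 between 20 and 50 kb. A further 15 lay between 50 and 100 kb, and 26 beyond 100 kb. The numbers on the upstream and downstream side were 32 and 21 within 5 kb, 64 and 60 from 5 to 10 kb, 83 and 56 from 10 to 20 kb and 45 and 37 from 20 to 50 kb. In all, 255 regions (58.1%, 53.3 to 62.7%) were upstream, beside 50.1% elsewhere. Within 10 kb the upstream share was 54.2%, and beyond 100 kb 21 of 26 were upstream, 10 of them near Olfr1507 and 6 near Olfr161. Without the 26 the share was 56.7%.

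**Figure D3:**
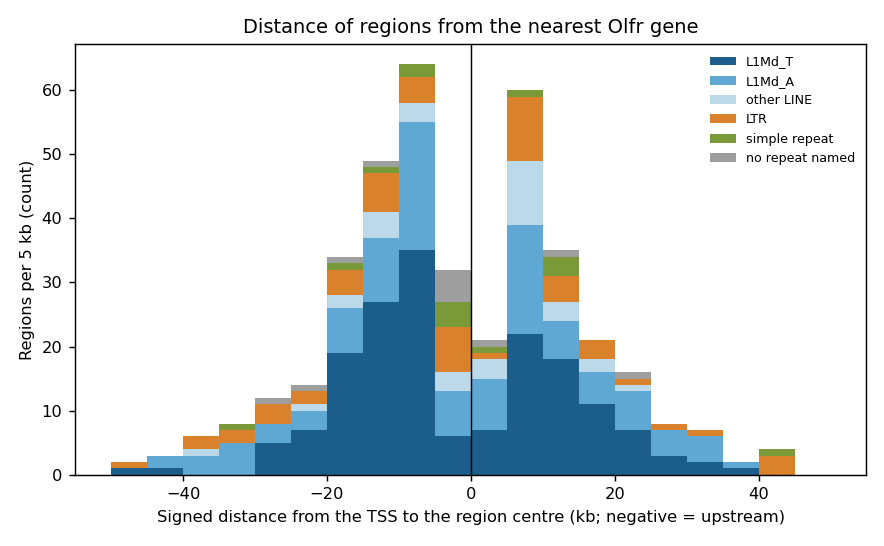
Number of regions per 5 kb (y axis) by signed distance from the start of the nearest Olfr gene to the region's centre (kb, x axis, negative upstream), for the 398 regions within 50 kb, stacked by repeat. The counts dip next to the start, with 32 upstream and 21 downstream in the first 5 kb. They peak at 5 to 10 kb with 64 and 60, and mostly fall from there outward.

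The distances depend on what the annotation calls a start. Of the 939 short Olfr models, 86.8% had a length that is a multiple of 3, so most models hold the coding sequence alone, and the distances are mostly from the start codon and not from the true start of transcription. For 335 of 360 regions whose gene has 1 strand and 1 start in the reference, the distance in the list was the same within 1 bp, and the sign was the same for 357.

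Some receptor genes did have a region close by. Of the 1109 protein-coding Olfr genes, 262 (23.6%) were nearest to at least 1 region, beside 23.3% of all protein-coding genes, so being nearest to a region was about as common for receptor genes as for genes in general. A region centre within 5 kb of the start was found for 50 of them (4.51%, 3.36 to 5.9%), beside 1.76% of all protein-coding genes. At Vmn1r and Vmn2r genes that share was higher still, 12.7% and 11.4%. The share nearest to a region was also higher there, 49.8% and 60.2%. Within 1 kb a centre was found for 4 Olfr genes (0.361%, 0.0984 to 0.921%), beside 0.177% of all protein-coding genes. The 4 were all upstream: Olfr119 at 325 bp, Olfr368 at 691 bp, Olfr670 at 832 bp and Olfr8 at 914 bp. Olfr8 had the highest score of these, 28.5 over 764 bp, or 37.3 per kb, while the other 3 had 6.37, 8.28 and 6.16.

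The share of young L1 was lowest in the regions closest to the start. Of the 53 regions within 5 kb, 28 were at young L1 (52.8%, 38.6 to 66.7%), 5 at simple repeats, 8 at LTR elements and 6 had no repeat named; their median score per kb was 25. Between 5 and 10 kb young L1 made up 75.8% (67.3 to 83%), and between 10 and 20 kb 74.1% (66 to 81.2%). Of the 6 regions without a repeat name, 5 have a promoter or transcription end class in its place. Without those 5 the share within 5 kb was 58.3% (43.2 to 72.4%), whose interval overlaps both others, and no test was run. Among the closest were Olfr1213 (1260 bp upstream, L1Md_F2, score 10.6), Olfr1381 (1263 bp upstream, (TAGA)n, 4.46), Olfr1180 (1333 bp upstream, L1Md_T, 7.65) and Olfr433 (1342 bp downstream, at the transcription end, 7.22). Stronger ones were Olfr1095, 4476 bp downstream at an L1Md_A element (score 126.6), and Olfr834, 3361 bp upstream at L1Md_Gf (111.9). Scores within 5 kb thus ran from 4.46 to 126.6, and most were low, with a median of 15.3.

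Regions also lay in the bodies of some receptor genes, mostly long ones. In all, 12 regions overlapped the bodies of 11 Olfr genes, 9 of them protein-coding (0.812%, beside 9.78% of all protein-coding gene bodies). The shortest of the 9 models was 4901 bp long, where the median model of all protein-coding Olfr genes was 951 bp, so these shares compare genes of unlike length. Examples are Olfr631 (chr7:103922399-103928207, L1Md_T, score 174.4), Olfr196 (chr16:59171588-59177661, L1Md_T, 192.4) and Olfr18 (chr9:20325919-20328024, L1Md_A, 62.6). The exception among the 11 was Olfr1227-ps1, a pseudogene of 720 bp. The authors' class was intronic for 3 of the 12 regions and intergenic for the others. All 9 protein-coding genes were overlapped at young L1 elements, and no region of the set was classed as exonic.

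The receptor genes fell into 64 genomic clusters when genes whose starts were at most 1 Mb apart were joined, and 39 clusters were nearest to a region. The 25 clusters without one held 37 genes and pseudogenes in all, at most 4 per cluster. The 15 clusters with at least 10 regions held 344 of the 439 (78.4%). All 15 had both L1Md_T and L1Md_A. L1Md_T was the more frequent in 10 of them and L1Md_A in 5, and the young L1 share ran from 45.5% to 100%.

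**Figure D4:**
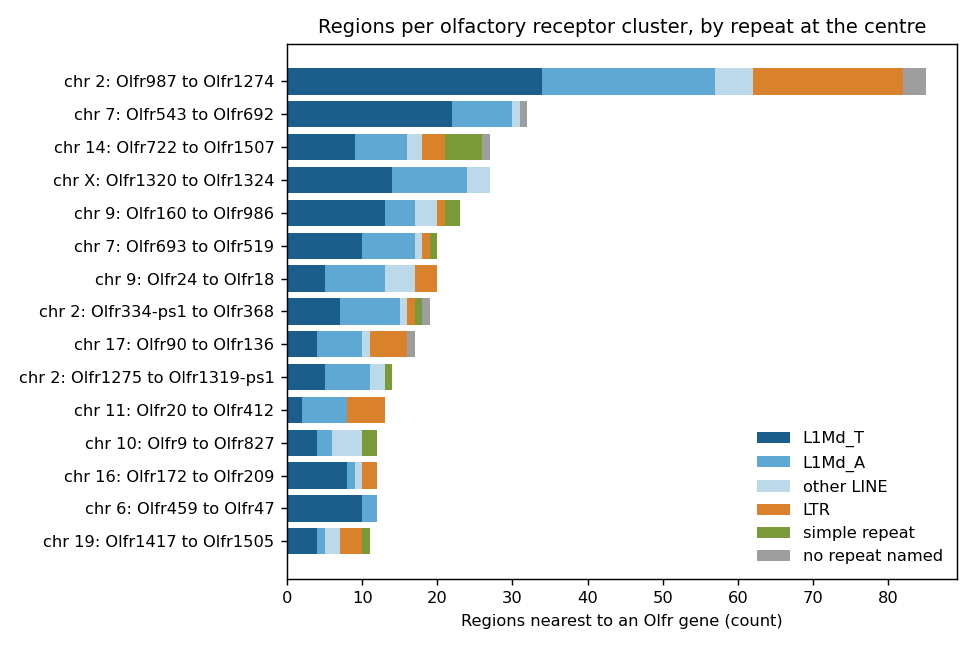
Number of regions (x axis) in each of the 15 clusters with at least 10, named by chromosome and by their first and last gene (y axis), stacked by the repeat at the centre. The first bar reaches 85 and the next 32, and young L1 forms the largest part of most bars.

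The chromosome 2 cluster from Olfr987 to Olfr1274 (85330967 to 90401674), with 293 genes and pseudogenes the largest of the family, had 85 regions at 51 genes. They were 34 at L1Md_T, 23 at L1Md_A, 20 at LTR elements, 11 of these at IAPEz-int, and 0 at simple repeats. Their distances ran from 1.26 to 38.3 kb with a median of 9.55 kb, 49 were upstream, and the median length was 675 bp at 30.5 per kb. It thus held 11 of the 29 IAPEz-int regions of the set, beside 85 of all 439 regions. Several of the 11 lay next to each other near the same gene, so they need not be separate elements.

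The chromosome 7 cluster from Olfr543 to Olfr692 (102476773 to 105369317) holds the class I receptors, the older, fish-like branch of the family, and surrounds the beta-globin genes. It had 32 regions at 21 genes, of which 22 were at L1Md_T and 8 at L1Md_A, a young L1 share of 93.8%, and 0 were at LTR elements. The median distance was 10.4 kb, 22 of 32 regions were upstream, and the median score per kb was 29.2. LTR elements were thus found in the large chromosome 2 cluster and not here; the difference was not tested.

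On chromosome 14 the cluster from Olfr722 to Olfr1507 (49894258 to 52495695) was assigned 27 regions, 16 at young L1 and 5 at simple repeats, with a median length of 500 bp at 27.8 per kb. Much of this count belongs to 1 gene. Olfr1507, also known as MOR28, is a much-studied receptor gene near the H enhancer, and it was nearest to 11 regions, more than any other Olfr gene. All 11 lay 92.6 to 576 kb upstream, inside the span that the reference gives to Tcra, the T cell receptor alpha locus (52427967 to 54224198), a span that also contains Olfr1507 itself. Without them the cluster had 16 regions at a median distance of 16.1 kb and at most 41.1 kb, 10 of them at young L1 and 6 upstream.

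On X the cluster from Olfr1320 to Olfr1324 (49683504 to 50426494) had 27 regions, with only 5 genes named as nearest. Of the 27 regions, 17 lay inside the span of the cluster. All 27 were at LINE elements, 14 at L1Md_T and 10 at L1Md_A. Their median distance was 75.9 kb, from 7.39 to 206 kb, with a median length of 1131 bp at 26.8 per kb. These were the longest regions, by median, of the 5 clusters with the most regions, in the cluster with the fewest genes.

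The chromosome 9 cluster from Olfr160 to Olfr986 (37711348 to 40188094) had 23 regions at 16 genes, with 127 genes and pseudogenes in the cluster. L1Md_T had 13 and L1Md_A 4, and 1 was at an LTR element. The median distance was 10.7 kb, the median length 779 bp and the median score per kb 26.2. Its longest region, 6467 bp near Olfr923, was also the longest of the 439.

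Among the other 10 clusters with at least 10 regions, the counts ran from 20 down to 11. The chromosome 6 cluster from Olfr459 to Olfr47 had 12 regions, all at young L1. The chromosome 19 cluster from Olfr1417 to Olfr1505 had 11, of which 5 were at young L1 (45.5%), with the lowest median score per kb of the 15 clusters, 23, where the highest was 31.4. On chromosome 11, from Olfr20 to Olfr412, L1Md_A had 6 of 13 regions and LTR elements 5, and 4 of the 13 were upstream. On chromosome 17, from Olfr90 to Olfr136, 17 regions included 5 at LTR elements. The mix of elements thus differed between clusters, with counts too small to rank most of them.

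Counting every region whose centre fell in the span of a cluster, whichever its nearest gene, gave 465 over 35.3 Mb. This was a density of 13.2 per Mb (95% interval from the Poisson distribution 12 to 14.4), against 9.06 per Mb (8.93 to 9.19) on the rest of the same chromosomes, 1.45 times as many. Of the 439 regions, 387 lay inside a span and 52 (11.8%) on the flanks. On 12 of the 16 chromosomes the spans were denser than the rest. The ratio was 2.32 on chromosome 4, 2.18 on chromosome 6, 2.15 on chromosome 2, 1.51 on chromosome 7, 1.03 on chromosome 14 and 0.971 on chromosome 19. It was lower still on chromosomes 15 (0.804), 13 (0.586) and 3 (0), which had 2, 4 and 3 of the 439 regions. Over the 27 clusters with a span of at least 0.2 Mb, the density ran from 3.45 to 24.2 per Mb with a median of 13.8. The highest belonged to the X cluster with its 5 genes, where X outside the clusters is itself dense, at a ratio of 1.17. Among clusters rich in genes it was 16.4 per Mb (13 to 20.3) in the large chromosome 2 cluster. On chromosome 19, in a cluster chosen after its value was seen, it was 5.74 (2.96 to 10). These intervals treat regions as independent, although neighbours can share an element, and the difference was not tested.

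**Figure D5:**
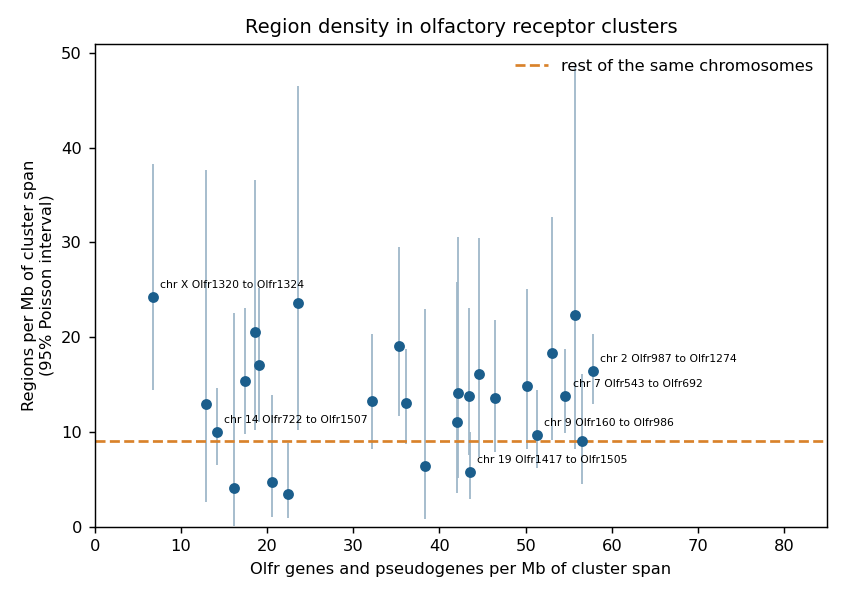
Regions per Mb (y axis, points with 95% Poisson intervals) against Olfr genes and pseudogenes per Mb (x axis) for the 27 clusters with a span of at least 0.2 Mb; the dashed line is the 9.06 per Mb on the rest of the same chromosomes. The X cluster stands at 24.2 with few genes per Mb, and the chromosome 19 cluster at 5.74.

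Single genes differed widely in how many regions they drew. Of the 267 genes, 173 were nearest to 1 region, 59 to 2 and 35 to 3 or more. After Olfr1507 came Olfr1323 and Olfr1324 on X with 9 each and Olfr161 on chromosome 16 with 7. All 7 regions of Olfr161 lay upstream, 45.9 to 569 kb away, toward the start of the chromosome's sequence. Olfr1320, Olfr165 and Olfr461 had 6 each, and Olfr1257, Olfr1274-ps and Olfr725 had 5 each. The 10 genes together held 69 regions (15.7%), of which 46 were at young L1. Many of these regions had the body of another gene of the reference closer by. An Olfr gene body was closest to 0 of the 11 regions of Olfr1507, 0 of 7 of Olfr161, 3 of 9 of Olfr1323 and 2 of 9 of Olfr1324. For Olfr1320 this held for 1 of 6 and for Olfr1274-ps for 0 of 5. By contrast, it held for 5 of 6 at Olfr165 and for all 5 at both Olfr1257 and Olfr725.

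Olfr461 on chromosome 6 had its 6 regions within 8.72 kb, and an Olfr gene body was closest to all 6. The authors' class was nevertheless intronic for all 6, in intron 2 of 3 of a transcript named NR_035473. They comprised 2 at L1Md_T, 2 at RLTR13A2 and 2 at ETnERV3-int. The 4 LTR regions followed each other upstream at 2006, 4364, 6293 and 8716 bp, with scores of 24.2, 10.8, 9.77 and 19.1. The L1Md_T regions lay downstream, at 5266 bp with a score of 114.9 and at 8564 bp with 12.7.

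Other known receptor genes had none. Olfr16, which encodes the sperm receptor MOR23, was nearest to 0 regions, and the closest one lay 75.3 kb away at an L1Md_A element (chr1:172878908-172881428, score 76). Olfr713 was also nearest to 0, with the closest region 45.6 kb away at L1Md_F2 (score 16.4). Genes that act downstream of the receptors or in the choice of a receptor were listed separately. Of these 24 genes, 5 were nearest to a region (20.8%, beside the 23.3% above), and 0 had a centre within 5 kb. Cnga2, a subunit of the olfactory cyclic nucleotide-gated channel, had 4, Ano2, a chloride channel, and Slc24a4, a sodium-calcium exchanger, had 2 each, and Omp, the olfactory marker protein, and the transcription factor Ebf1 had 1 each. Adcy3, Gnal, Lhx2, Ldb1 and Kdm1a had 0. Trace amine receptors (Taar), another family of olfactory receptors, had 2 regions at 2 of 15 genes, against 114 of 229 genes for Vmn1r and 74 of 123 for Vmn2r.

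Membership rests on the nearest gene named by the authors. By the bodies of protein-coding genes in the reference, an Olfr gene was closest to 418 of the 439 regions (95.2%), and by the bodies of all reference genes to 346 (78.8%). L1 families consist of near-identical copies, so the placement of reads among them is uncertain, and the effect of that placement on these counts was not tested.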

How the data were processed

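SPOC1 ChIP and input DNA from testis was sequenced. The submitters' processing notes name Bowtie2 2.2.2, SAMtools and HOMER 4.6 and the build mm10, with no roles. The deposited list was written by HOMER's annotation program, per the file headers; its score is the authors' own, with no stated unit, and its lengths and signed distances are in bp. Depth per library is unknown.

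Members were regions whose gene name starts with Olfr. Of them, 435 matched the RefSeq table (GRCm38.p6) by gene number; the other 4 took the cluster of the closest Olfr gene. A gene start under 3 Mb was taken as a scaffold position and not used. Olfr genes with starts at most 1 Mb apart were joined into clusters. Shares carry exact binomial, densities Poisson and medians order-statistic 95% intervals, for counting error only. No test was run, since regions are not replicates. Clusters with at least 10 regions, the 5 with the most, the 10 genes with the most regions, the 10 highest scores and genes within 5 kb were named; Olfr834 and Olfr1095, the gene-body examples and further clusters were chosen after their values were seen. Members and lists were chosen with earlier results of these data known. Cluster joining was tested on simulated data. Alternatives covered score, distance, cluster gap and the largest cluster. Tools were SciPy 1.17.1, matplotlib 3.10.9, NumPy 2.4.6, pandas 2.3.3 and Python 3.11.15.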

Additional observations from a re-analysis of the deposited data

How the results depend on the processing

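No paired analysis was possible because no value belongs to a single library. Regions numbered 250 and 66 in the 50% and 10% of the list with the highest score and 177 within 10 kb of the start, by construction. In the same 50% and 10% the LINE share was 86.4% and 89.4% and the share of L1Md_T and L1Md_A 83.6% and 86.4%. In the upper 50% the median length was 1101.5 bp, the density 7.5 regions per Mb, and the share of Olfr genes nearest to a region 15.7%. With clusters joined at 2 Mb the density was 11.9 per Mb. The median score without division by length was 19.7, on another scale. Pieces of 1 repeat counted once, an alternative chosen after seeing the data, gave a median length of 775 bp. The 5 clusters with the most regions had 12 to 49 regions in the upper 50% and 4 to 11 in the upper 10%, again by construction. The remaining 40 values, among them all alternatives for the upstream share (54.2 to 58.2%), stayed within the counting interval of the value reported, or within 1.5 times a count. Leaving out regions beyond 100 kb, leaving out X and taking the closest gene body from the reference were also chosen after seeing the data. Beyond what each construction fixes, the cause was not tested.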

Other observations

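One region stood apart from the rest in score per kb. It lay 242 kb upstream of Olfr161 (chr16:3349765-3350265), was 500 bp long with no repeat named, and had a score of 91.3, or 183 per kb. The next highest of the 439 regions had 51.6 per kb, at an L1Md_A element 11.5 kb upstream of Olfr867, and the median of the 13 regions with no repeat named was 13.5. The level of the input libraries there is not in the list.

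Within the large chromosome 2 cluster, 3 regions with no repeat named lay close together. They were at chr2:89211383-89212359 near Olfr1226 and at chr2:89227383-89228351 and chr2:89235712-89236586 near Olfr1228. Their lengths were 976, 968 and 874 bp and their scores per kb 13.5, 12.7 and 12.6. All 3 regions of that cluster with no repeat named are these. The 2 regions of the set at RLTR17B_Mm, an LTR element, lay in the same stretch. They were at chr2:89219406-89220446 (1040 bp, 13.5 per kb) and chr2:89243555-89244422 (867 bp, 12.5 per kb), so regions of similar length and score per kb there were not all without a repeat name.

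The 5 regions at (TAGA)n all lay upstream of their receptor gene. They were 1263 bp from Olfr1381, 3704 bp from Olfr273, 4267 bp from Olfr726, 19996 bp from Olfr362 and 31962 bp from Olfr948, with scores from 4.46 to 7.65. The interval for 5 of 5 upstream is 47.8 to 100%, which includes the 58.1% of the whole set. Elsewhere on the autosomes and X, 115 of 254 regions at (TAGA)n (45.3%) were upstream. The 5 regions at MERVL-int were also all upstream, and neither count was tested. A region at (TCTA)n lay 7799 bp downstream of Olfr1513.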
